A study of Mus musculus with 24 samples.

Results

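Cxcl12 and its receptors Cxcr4 and Ackr3 were followed across 6 groups of mouse macrophage preparations. The spots were taken by gene name from the array annotation, and all probes of each gene were kept. They were 3 genes of 23741 named genes, measured by 4 probes, since Cxcl12 had 1 probe for transcript variant 1 and 1 probe for variants 2 and 3.

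CXCL12 is a chemokine made mainly by stromal and endothelial cells, and it draws in and holds cells that carry its receptor. CXCR4 is the G protein-coupled receptor through which leukocytes migrate toward CXCL12, and it also serves as a partner receptor for MIF. ACKR3, formerly called CXCR7, is an atypical receptor that binds CXCL12 and CXCL11, couples to beta-arrestin rather than to G proteins, and removes the chemokine from the surroundings.

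The arrays held RNA from tumour-associated macrophages (TAM) and from macrophages grown from bone marrow, all from C57BL/6 male mice aged 10 weeks. TAM post-sepsis came from mice 14 days after sepsis and TAM naive from mice without sepsis, and both were enriched on a density gradient followed by adhesion, with no sort for a surface marker. M0 post-sepsis and M0 naive were marrow cells of the same 2 kinds of mice, grown for 7 days in medium with L929 cell supernatant, a source of macrophage growth factor. M1 and M2 were naive marrow cultures treated at day 3. M1 received 50 ng/mL interferon-gamma with 10 ng/mL lipopolysaccharide, and the label of M2 gives 20 ng/mL IL-10. Each group had 4 arrays, and TAM naive replicate 2 was left out because the submitters had excluded it, which left 23 arrays. The labels do not name the tumour line. Per the design text, the 4 TAM samples of a group were chosen from 12 mice of 3 experiments by absorbance ratios, and the marrow samples from 2 experiments with 3 samples per group each. Which sample came from which experiment is not given, so p-values measure the spread between the chosen samples.

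Levels are log2 processed intensity minus the 75th percentile of the array, so a level of 0 is as bright as that percentile, which lay between 236 and 694 intensity units. Between 56.9% and 69.7% of probes were well above background, none of the 4 probes was saturated, and array pairs within a group correlated at 0.899 to 0.991. The arrays lay on 3 slides, each with at least 5 of the groups. The number of arrays limits the precision. All 8 macrophage markers (such as Csf1r, Adgre1 and Mertk) were above background in every group, but their mean level lay between 0.36 and 1.53 on the TAM arrays and between 4.85 and 6.63 on the marrow arrays. All 4 melanocyte markers, among them Tyr and Dct, were above background in TAM, with mean levels of 7.20 to 7.38 in TAM post-sepsis and 6.57 to 7.36 in TAM naive. In marrow cultures these markers lay at -4.28 to -2.45, and Dct was not well above background. All 9 fibroblast and stroma markers were above background in TAM, whereas Pdgfra, Pdgfrb and Lum were not in any marrow group. The TAM arrays thus held transcripts of several cell types, and in bulk RNA fewer cells of a type and less RNA per cell cannot be told apart.

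The last 30 bases of each 60-base probe are shown because the 2 Cxcl12 probes read different transcript ends, whose starts lie 6201 bases apart, and so measure different variants. Capitals mark AATAAA, the hexamer of the polyadenylation signal.
Cxcl12 variant 1 probe: tatttacctgaAATAAAatctactagttgt
Cxcl12 variants 2 and 3 probe: tgctttcttattcttatttttaatatatga
Cxcr4 probe: gtaaattgAATAAAgctagccgtgatcctc
Ackr3 probe: ttcttcaagtttttacttggtgactttttg
In the mm9 build named by the files, the variant 1 probe lies at chr6:117125026-117125085 on the plus strand and the probe for variants 2 and 3 at chr6:117131227-117131286 on the plus strand. The Cxcr4 probe lies at chr1:130485079-130485138 on the minus strand and the Ackr3 probe at chr1:92111803-92111862 on the plus strand. All 4 are assigned by the files to messenger RNA accessions and so to exons. The hexamer occurs in the variant 1 probe and in the Cxcr4 probe within the printed bases.

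The promoters are shown because Cxcr4 moved apart from the other 2 genes in these data. Each sequence is the 250 bases up to the RefSeq transcription start in GRCm38.p6, and capitals mark matches on either strand. The TATA box was read as TATAAA, the GC box bound by Sp1 as GGGCGG, and the core of the site for the factor NRF1 as CATGCGC.
Cxcl12 promoter: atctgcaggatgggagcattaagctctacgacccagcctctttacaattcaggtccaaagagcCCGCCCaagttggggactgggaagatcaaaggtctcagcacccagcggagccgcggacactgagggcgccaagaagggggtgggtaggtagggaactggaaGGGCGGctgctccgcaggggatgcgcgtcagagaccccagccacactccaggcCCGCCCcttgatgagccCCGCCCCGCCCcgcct
Cxcr4 promoter: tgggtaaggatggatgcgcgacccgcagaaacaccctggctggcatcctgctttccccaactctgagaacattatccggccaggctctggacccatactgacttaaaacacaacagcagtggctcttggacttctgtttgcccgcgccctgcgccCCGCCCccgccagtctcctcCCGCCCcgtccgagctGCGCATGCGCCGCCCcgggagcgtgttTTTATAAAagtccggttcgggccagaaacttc
Ackr3 promoter: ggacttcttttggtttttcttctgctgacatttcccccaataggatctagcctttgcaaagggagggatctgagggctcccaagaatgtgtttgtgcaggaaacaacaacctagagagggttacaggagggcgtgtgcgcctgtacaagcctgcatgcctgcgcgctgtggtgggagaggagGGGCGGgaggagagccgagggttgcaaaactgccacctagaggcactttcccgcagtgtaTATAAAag
They lie at chr6:117168285-117168534 on the plus strand for Cxcl12, chr1:128592300-128592549 on the minus strand for Cxcr4 and chr1:90203730-90203979 on the plus strand for Ackr3. The Cxcl12 window held 5 GC boxes, of which the last 2 share 1 base, with 64.4% G and C. The Cxcr4 window held 3 GC boxes, an NRF1 core starting 56 bases upstream that overlaps another on the other strand, and a TATA box starting 30 bases upstream that also overlaps another. Its GC box nearest to the start shares 1 base with the NRF1 core. The Ackr3 window held 1 GC box and a TATA box starting 8 bases upstream, with 54% G and C. Among 32851 promoter windows of the same length, 32.7% held a GC box, 12.4% a TATA box and 3.24% the NRF1 core. The hypoxia response core, ACGTG, held by 16.6% of windows, had no match in these 3. Nor had the STAT site, TTCNNNGAA, held by 7.02%. A match is a description of the letters and not evidence of binding.

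Cxcr4 was above background on all 23 arrays, and its mean level ran from lowest in TAM post-sepsis to highest in M0 naive. The mean was -0.77 ± 0.68 in TAM post-sepsis (SD, n = 4), 0.08 ± 0.21 in M0 post-sepsis (n = 4), 0.22 ± 0.11 in M1 (n = 4), 0.97 ± 0.84 in TAM naive (n = 3), 1.24 ± 0.11 in M2 (n = 4) and 2.01 ± 0.22 in M0 naive (n = 4). Among neighbours in this order, TAM post-sepsis lay below M0 post-sepsis with no overlap, and M2 lay below M0 naive with no overlap. The ranges of M0 post-sepsis and M1, of M1 and TAM naive, and of TAM naive and M2 overlapped. Cxcl12 and Ackr3 were well above background on all 7 TAM arrays and on none of the 16 marrow arrays.

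**Figure D1:**
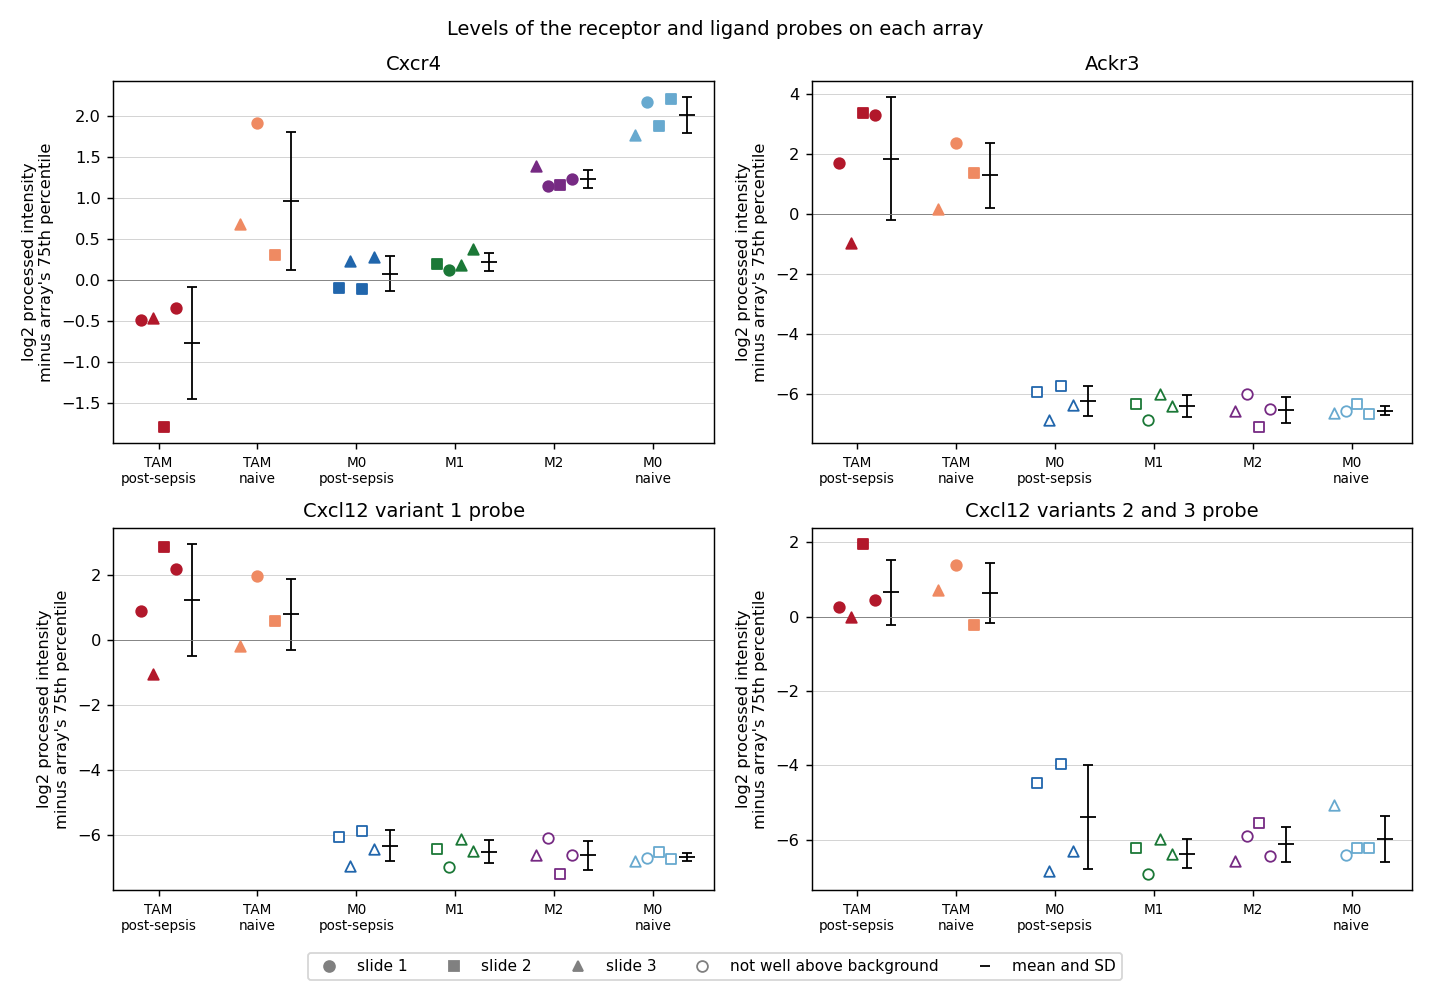
Level of each of the 4 probes (vertical axes, log2 processed intensity minus the array's 75th percentile) on the 23 arrays by group; points are arrays with the shape giving the slide, open points are not well above background, and bars are the mean and SD. Cxcr4 is measured in every group and is lowest in TAM post-sepsis, while the Cxcl12 and Ackr3 points are open in all marrow groups.

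The first comparison asked how an earlier sepsis altered TAM. Cxcr4 had levels of -0.48, -0.46, -1.79 and -0.34 in TAM post-sepsis, against 0.68, 1.92 and 0.31 in TAM naive. All 4 post-sepsis arrays lay below all 3 naive arrays, as did 11.7% of the 34765 probes tested. The difference was -1.74 ± 0.49 (SE; 95% interval -2.89 to -0.59) on the log2 scale, or 0.300-fold, and it did not pass the limma test over all probes (adjusted p = 0.116), in which 0 probes passed (12814 had an unadjusted p under 0.05). In the limma fit with slide as a block, the difference was -1.90 ± 0.27 with an adjusted p of 0.0110. That fit called 33.1% of probes, with 24.1% of all probes lower and 9.01% higher in TAM post-sepsis. Within the 3 slides the Cxcr4 difference was -2.33, -2.10 and -1.14. A two-sided exact permutation test over the 7 arrays gave p = 0.0286, the smallest that 35 splits allow. Without TAM post-sepsis replicate 3, the array lowest in Cxcr4, the difference was -1.40 (limma adjusted p = 0.228).

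Mean levels of marker lists of other blood cells moved with Cxcr4 across these arrays. The mean level of 5 B cell markers lay between -3.80 and -1.02 in TAM post-sepsis and between -0.37 and 1.89 in TAM naive. That of 9 T and NK cell markers lay between -4.04 and -2.07 in TAM post-sepsis and between -1.54 and -0.50 in TAM naive, and 5 of 9 and 7 of 9 were above background, with Klrb1c and Ncr1 dim in both. Dendritic cell markers lay between -2.27 and -1.51 in TAM post-sepsis and between -0.87 and 0.08 in TAM naive, with 5 of 6 above background in both and Xcr1 dim. Neutrophil markers lay between -0.35 and 1.40 in TAM post-sepsis, where Cxcr2 was dim, and between 1.42 and 2.95 in TAM naive, where all 6 were above background. Ly6g alone of these 6 went the other way, with a mean of -0.96 in TAM post-sepsis against -1.44 in TAM naive. For all 4 lists the TAM groups did not overlap, and the array lowest in Cxcr4, TAM post-sepsis replicate 3, was also the lowest in each. The array highest in Cxcr4, TAM naive replicate 3, was the highest in each. The mean of the macrophage markers overlapped, at 0.36 to 1.53 in TAM post-sepsis and 1.11 to 1.47 in TAM naive, but the list was split. Itgam (5.55 against 7.72) and Tyrobp (2.08 against 3.13) averaged lower in TAM post-sepsis. The other macrophage markers averaged higher there, Lyz2 the most (0.07 against -0.65). The part of these cells in the Cxcr4 difference was not tested.

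**Figure D2:**
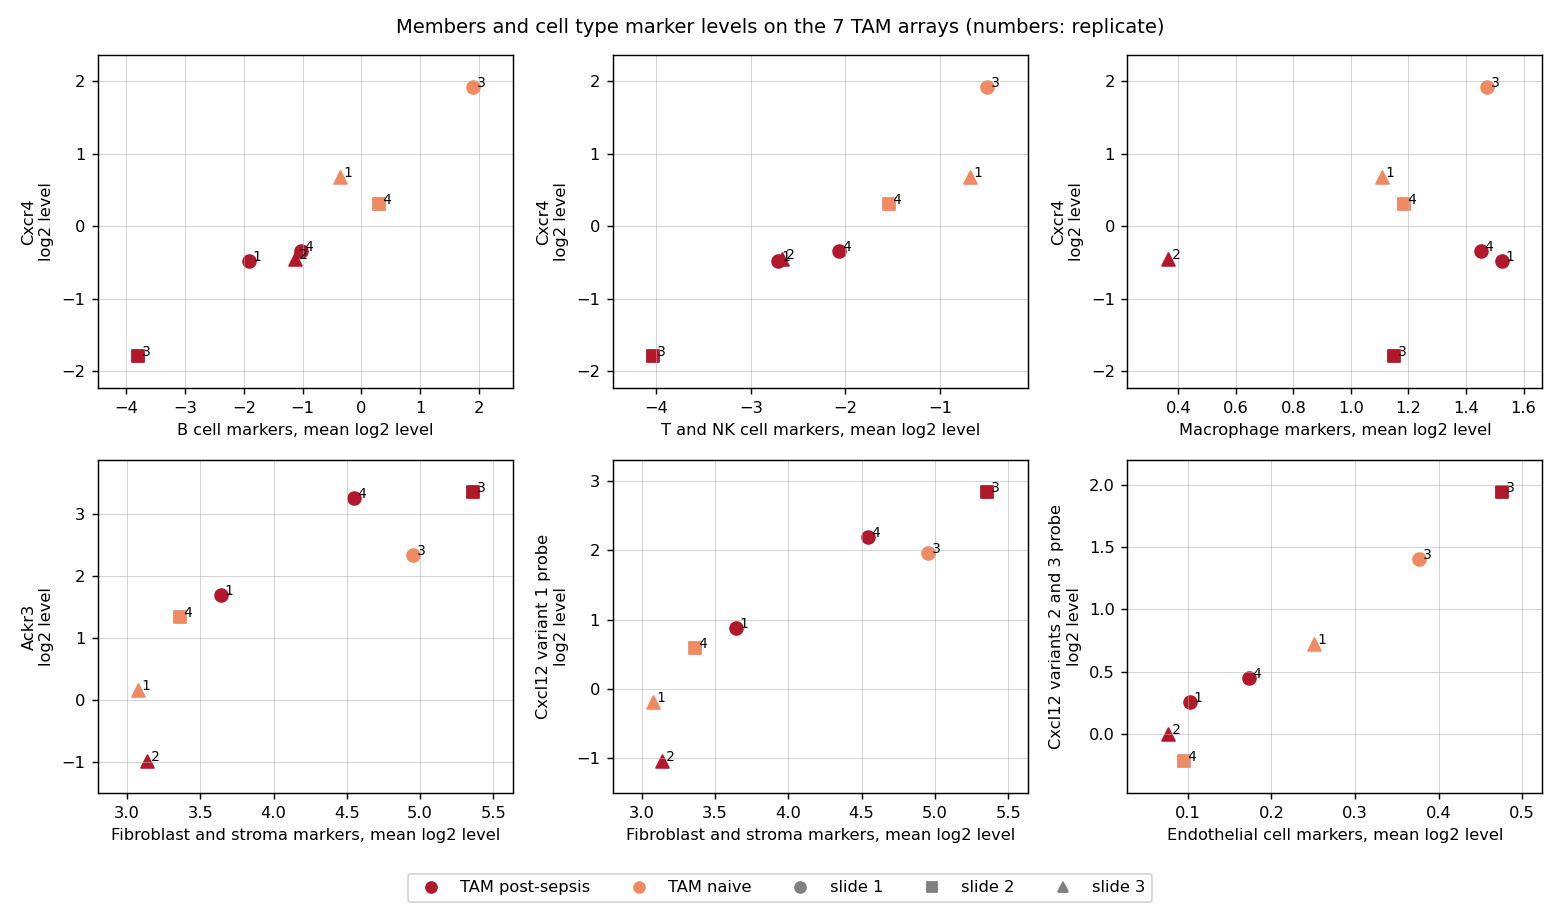
Level of a member (vertical axes, log2) against the mean log2 level of a marker list (horizontal axes) on the 7 TAM arrays, with dark points for TAM post-sepsis, light points for TAM naive, shapes for slides and numbers for replicates. The arrays lowest and highest in Cxcr4 are also those lowest and highest in B cell and T and NK cell markers, while Ackr3 and both Cxcl12 probes are high on arrays high in stromal or endothelial markers.

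Ackr3 had levels of 1.69, -0.98, 3.36 and 3.27 in TAM post-sepsis, against 0.16, 2.34 and 1.34 in TAM naive. The groups overlapped, and the post-sepsis group held both the lowest and the highest arrays. The difference was 0.56 ± 1.07 (SE; 95% interval -1.94 to 3.05) with a limma adjusted p of 0.706, and 0.32 ± 0.61 with slide as a block (adjusted p = 0.694). Within slides it was 0.14, 2.02 and -1.15, so its sign differed between slides. The interval holds changes of several fold either way, so no likeness of the groups is shown.

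The Cxcl12 variant 1 probe had levels of 0.88, -1.04, 2.85 and 2.19 in TAM post-sepsis, against -0.19, 1.96 and 0.59 in TAM naive. Its difference was 0.43 ± 0.94 (SE; 95% interval -1.75 to 2.61; limma adjusted p = 0.740), and the groups overlapped. The probe for variants 2 and 3 had levels of 0.25, -0.00040, 1.95 and 0.44 in TAM post-sepsis, against 0.72, 1.41 and -0.22 in TAM naive. Its difference was 0.02 ± 0.55 (SE; 95% interval -1.26 to 1.31; limma adjusted p = 0.976). Within slides the variant 1 probe differed by -0.43, 2.26 and -0.85 and the other probe by -1.06, 2.16 and -0.72. Exact permutation tests gave p = 0.686 for Ackr3 and for the variant 1 probe and p = 0.971 for the other Cxcl12 probe. The ligand and its scavenger receptor thus varied widely between TAM arrays of one group, with no sepsis difference that passed a test.

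Ackr3 and the Cxcl12 variant 1 probe put the 7 TAM arrays in the same order (Pearson r = 0.98). The probe for variants 2 and 3 had an r of 0.57 with Ackr3 and 0.70 with the variant 1 probe. Cxcr4 had an r of -0.20 with Ackr3. These values describe 7 arrays that share slides and mixed RNA. Fibroblast and stroma markers ran from 3.14 to 5.36 in TAM post-sepsis and from 3.07 to 4.95 in TAM naive, and the 3 arrays highest in them were also the 3 highest in the variant 1 probe and in Ackr3. Endothelial markers ran from 0.08 to 0.48 in TAM post-sepsis and from 0.09 to 0.38 in TAM naive, with 5 of 6 above background in both and Tek dim. The 2 arrays highest in endothelial markers, TAM post-sepsis replicate 3 and TAM naive replicate 3, were also the highest in the Cxcl12 probe for variants 2 and 3. The part of these cells in the spread of Cxcl12 and Ackr3 was not tested.

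The next comparison asked whether sepsis also altered macrophages grown from marrow. Cxcr4 had levels of -0.09, 0.24, -0.11 and 0.29 in M0 post-sepsis, against 1.77, 2.18, 1.88 and 2.21 in M0 naive. The groups did not overlap, as was so in this direction for 6.99% of the 35363 probes tested. Cxcr4 fell by 1.93 ± 0.16 on the log2 scale (SE), to 0.263-fold of M0 naive, with a limma adjusted p of 1.34e-06. The test called 12.7% of probes, with 6.28% of all probes lower and 6.38% higher in M0 post-sepsis. On the 2 slides that held both groups the difference was -2.15 and -1.51. In these cultures the B cell markers overlapped, at -2.48 to -1.13 in M0 post-sepsis and -2.23 to -1.39 in M0 naive, and so did the T and NK cell markers, at -3.91 to -1.76 in M0 post-sepsis and -3.71 to -3.04 in M0 naive. The mean of the neutrophil markers was lower, at 1.08 to 1.68 in M0 post-sepsis and 1.84 to 2.34 in M0 naive, with Ly6g and Cxcr2 dim in M0 post-sepsis. Mpo alone of the 6 markers was higher, at 0.04 in M0 post-sepsis against -1.86 in M0 naive. The mean of the dendritic cell markers was higher, at -2.02 to -1.22 in M0 post-sepsis and -3.02 to -2.26 in M0 naive. Among them Cd209a (-2.28 against -6.09) and Itgax (1.82 against 0.11) differed most, and Ccr7 was at -1.06 against -0.90. The mean of the macrophage markers was lower, at 4.85 to 5.81 in M0 post-sepsis and 6.49 to 6.63 in M0 naive. The blood progenitor markers Kit and Cd34, both above background in both groups, were higher and did not overlap, at -1.04 to 0.39 in M0 post-sepsis and -2.53 to -1.73 in M0 naive. The part of these lists in the result was not tested.

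The difference in Cxcr4 between post-sepsis and naive mice was compared between TAM and M0 in 1 limma fit of all 23 arrays. The TAM difference minus the M0 difference was 0.19 ± 0.45 (SE; 95% interval -0.74 to 1.12; adjusted p = 0.786), in a fit that called 6.39% of probes, 2.45% with the TAM effect below the M0 effect. The interval leaves room for a gap of about 1 log2 unit between the sources, and without TAM naive replicate 4 the value was -0.14. That fit called 1502 probes higher and 933 lower, against 2911 higher and 1012 lower with quantile scaling of the arrays, where the median over probes was 0.03 rather than -0.24.

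**Figure D3:**
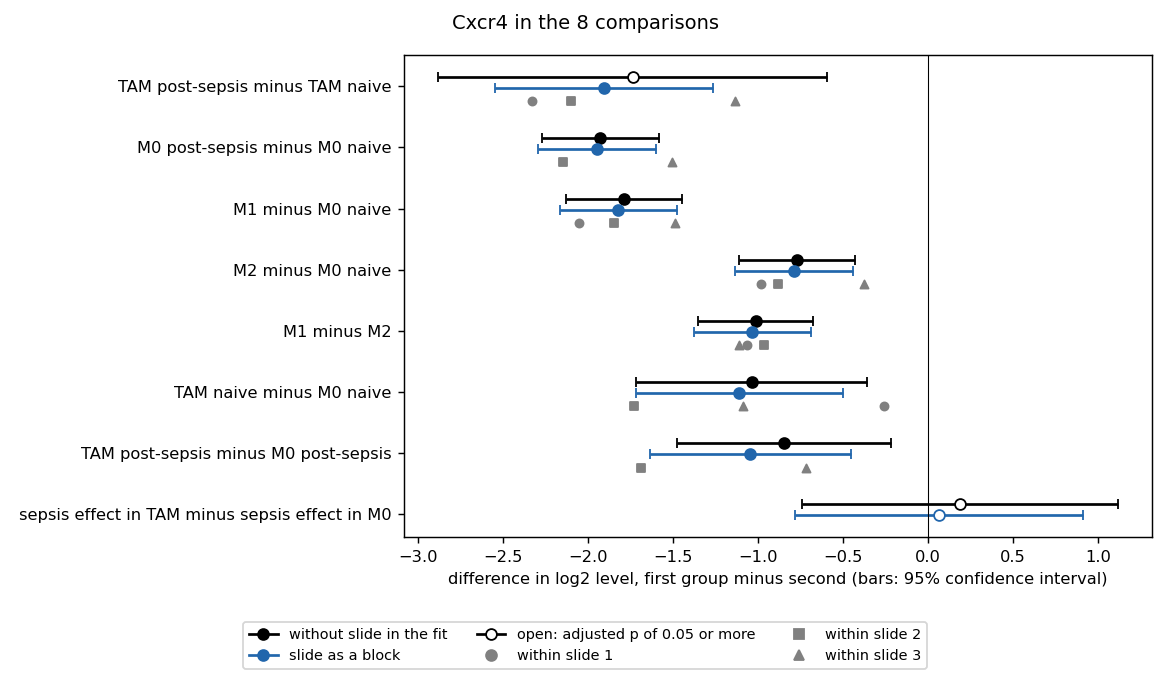
Difference in the log2 level of Cxcr4, first group minus second, in 8 comparisons, from limma without slide (black) and with slide as a block (blue), with 95% confidence intervals as bars; open circles have an adjusted p of 0.05 or more, and grey points are differences within single slides. All 7 differences between groups lie below 0, while the interval of the difference between the sepsis effects spans 0.

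A further set of comparisons asked how polarization altered naive marrow cultures. Cxcr4 had levels of 0.20, 0.13, 0.18 and 0.38 in M1, against 1.77, 2.18, 1.88 and 2.21 in M0 naive. It fell by 1.79 ± 0.16 (SE), to 0.290-fold, with a limma adjusted p of 3.57e-07, among 15.6% of probes called lower in M1 (30.1% called in all). In M2 the levels were 1.40, 1.16, 1.17 and 1.23, and the fall against M0 naive was 0.77 ± 0.16, or 0.585-fold (limma adjusted p = 0.00412), among 7.53% of probes called lower (13.2% in all). Neither M1 nor M2 overlapped M0 naive, which was so in this direction for 19.3% and 13.7% of the probes tested. The M2 call was not held in a fit of all 23 arrays, where the adjusted p was 0.105. The mean of the neutrophil markers was lower in both treated cultures with no overlap. It lay at 1.12 to 1.38 in M1 (Cxcr2 dim) and 0.84 to 1.41 in M2 (Ly6g and Cxcr2 dim), against 1.84 to 2.34 in M0 naive. In M1 the markers split. S100a9 averaged -1.04 against 7.22 in M0 naive, and S100a8, Mpo and Cxcr2 were lower too, whereas Ly6g averaged 4.20 against -2.25. Csf3r was also higher than in M0 naive (8.16), at 8.52 in M1 and 8.33 in M2. The mean of the macrophage markers was lower too, at 5.76 to 5.90 in M1 and 5.88 to 6.09 in M2 against 6.49 to 6.63 in M0 naive. Mertk (2.90 against 2.34) and Itgam (6.52 against 6.09) were higher in M1 than in M0 naive. In M2 Lyz2 (7.44 against 7.15) and Cd68 (8.55 against 8.45) were higher and Itgam was near level (6.10 against 6.09). Blood progenitor markers lay at -5.61 to -4.70 in M1 and -4.64 to -3.76 in M2, with Kit dim in both, against -2.53 to -1.73 in M0 naive. The T and NK cell markers, at -4.21 to -3.81, and the B cell markers, at -2.94 to -2.48, lay below M0 naive in M1. The mean of the dendritic cell markers lay higher in M2 than in M0 naive, at -1.82 to -1.01 against -3.02 to -2.26. Itgax differed most, at 6.65 in M2 against 0.11 in M0 naive. Ccr7 was at -0.55 against -0.90, Flt3 at -0.90 against -0.72 and Zbtb46 at -3.05 against -2.94, with Cd209a and Xcr1 dim in both groups. The part of these lists in the Cxcr4 differences was not tested.

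M1 lay below M2 for Cxcr4 with no overlap, and the difference was -1.02 ± 0.16 (SE), or 0.495-fold, with a limma adjusted p of 1.11e-04. Of the probes tested, 16.4% were called lower in M1 than in M2 (33.0% in all), and 19.2% did not overlap in that direction. Within the 3 slides M1 differed from M2 by -1.07, -0.97 and -1.11, from M0 naive by -2.05, -1.85 and -1.49, and M2 differed from M0 naive by -0.99, -0.88 and -0.37. M1, M2 and M0 post-sepsis were all set against the same 4 M0 naive arrays, so their differences share that reference. Neither Cxcl12 nor Ackr3 was well above background in any of these cultures. Their processed intensities lay between 4.11 and 6.35 for Ackr3, between 3.85 and 5.90 for the Cxcl12 variant 1 probe, and up to 15.3 for the probe for variants 2 and 3.

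The last comparisons set TAM beside M0 macrophages of the same kind of mouse. Ackr3, the scavenger receptor, was at least 64.1-fold higher in TAM post-sepsis than in M0 post-sepsis (limma adjusted p = 2.35e-09) and at least 55.3-fold higher in TAM naive than in M0 naive (adjusted p = 1.37e-08). Bounds are given because the M0 arrays were all dim; each sets the mean TAM level against the M0 mean of, per array, the lowest signal well above background or the probe's own value if higher. The Cxcl12 variant 1 probe was at least 41.7-fold higher in TAM post-sepsis than in M0 post-sepsis (limma adjusted p = 1.02e-09) and at least 39.3-fold higher in TAM naive than in M0 naive (adjusted p = 4.68e-09). For the probe for variants 2 and 3 these bounds were 28.4-fold (limma adjusted p = 1.47e-08) and 35.4-fold (adjusted p = 1.44e-08). No TAM array overlapped an M0 array for these 3 probes, which was so in this direction for 14.7% of probes in post-sepsis mice and 17.8% in naive mice. Their p-values come from fits of the measured values, dim M0 arrays included, and not from the bounds. These 3 probes passed the filter through the TAM arrays alone. The p-values and the lack of overlap therefore add no support beyond TAM being bright and M0 dim. The test called 45.2% of probes for post-sepsis mice, with 17.6% of all probes higher in TAM post-sepsis, and 38.1% for naive mice. The fibroblast and stroma markers differed in the same direction, at 3.14 to 5.36 in TAM post-sepsis against -4.20 to -3.09 in M0 post-sepsis, where 6 of 9 were above background. They lay at 3.07 to 4.95 in TAM naive against -4.05 to -3.48 in M0 naive, where 5 of 9 were above background. The mean of the endothelial markers differed likewise, at 0.08 to 0.48 in TAM post-sepsis against -1.998 to -1.204 in M0 post-sepsis, and at 0.09 to 0.38 in TAM naive against -2.04 to -1.54 in M0 naive. In both M0 groups 3 of 6 were above background, with Cdh5, Tek and Emcn dim. These 3 were higher in TAM. Vwf went the other way, at 2.90 in TAM post-sepsis against 3.59 in M0 post-sepsis and 2.82 in TAM naive against 3.07 in M0 naive. Kdr (3.85 against 3.88) and Pecam1 (-1.43 against -1.46) were near level for post-sepsis mice. For naive mice Kdr was at 4.35 against 3.53 and Pecam1 at -1.39 against -1.57. The part of both lists in the result was not tested.

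Cxcr4 went the other way. It was lower by 0.85 ± 0.30 in TAM post-sepsis than in M0 post-sepsis (SE; log2 change -0.85; limma adjusted p = 0.0278), with no overlap, among 27.5% of probes called lower. The median over all probes was -0.32 in that comparison and -0.14 with quantile scaling, under which Cxcr4 was at -0.77 and still passed (limma adjusted p = 0.0425). Without TAM post-sepsis replicate 3 the difference was -0.51 (limma adjusted p = 0.135). The call also ended without M0 post-sepsis replicate 2 (adjusted p = 0.0544) or replicate 4 (adjusted p = 0.0562). Against M0 naive, TAM naive was at -1.04 ± 0.33 (SE; limma adjusted p = 0.0152), among 22.0% of probes called lower. These 2 groups overlapped, since TAM naive replicate 3 at 1.92 lay above the lowest M0 naive array at 1.77. The call ended without TAM naive replicate 1 (limma difference -0.89, adjusted p = 0.0776) or replicate 4 (-0.71, adjusted p = 0.117). It was larger without TAM naive replicate 3 (limma difference -1.51, adjusted p = 4.83e-04).

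Genes whose level followed each member most closely were taken from 18316 genes over the 23 arrays, by Pearson r with no test. For Cxcl12, read by its probe for variants 2 and 3, they were Fkbp10, Prss23, Notch3, Irs1 and Hrct1, with r between 0.985 and 0.987. That probe had the higher mean of the pair over all 23 arrays, which include the marrow arrays where both were dim. For Ackr3 they were Pdgfra, Postn, Cyp7b1, Adgrd1 and Mmp3, all at 0.996. For Cxcr4 they were Wfdc21 (0.893), Cd83 (0.875), Klra6 (0.868), S100a8 (0.859) and Frat1 (0.845). The 23 arrays fall into TAM and marrow, which lie far apart for Cxcl12 and Ackr3, and over the 7 TAM arrays alone none of the 5 nearest genes of any member was the same. S100a8 is one of the neutrophil markers and Pdgfra one of the fibroblast and stroma markers above. Ly6g, another neutrophil marker, was among the 5 genes nearest to Ackr3 over the 7 TAM arrays (r = 0.992). With quantile scaling 3, 3 and 2 of the 5 genes were shared for Cxcl12, Cxcr4 and Ackr3.

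The wider pathway was read from 68 other genes in 6 lists. Between TAM post-sepsis and TAM naive, 65 of them were tested and 0 passed the limma test. With slide as a block 3 passed higher and 10 lower, that is 4.62% and 15.4% of them, beside 9.01% and 24.1% of all probes. In M0 post-sepsis against M0 naive, 6 of 63 passed higher and 6 lower, that is 9.52% each way, beside 6.38% higher and 6.28% lower of all probes. In M1 against M0 naive 22 of 63 passed higher (34.9%) and 10 lower (15.9%), beside 14.6% and 15.6% of all probes. In M2 against M0 naive 9 of 62 passed higher (14.5%) and 12 lower (19.4%), beside 5.67% and 7.53% of all probes. In M1 against M2 21 of 63 passed higher (33.3%) and 8 lower (12.7%), beside 16.6% and 16.4% of all probes. In TAM post-sepsis against M0 post-sepsis, 18 of 67 passed higher (26.9%) and 28 lower (41.8%), beside 17.6% and 27.5% of all probes. In TAM naive against M0 naive, 15 of 67 passed higher (22.4%) and 27 lower (40.3%), beside 5871 of 36602 probes higher and 22.0% lower. The members were chosen with earlier results known, so these shares are descriptions. The changes below are log2 ± SE, and unless stated otherwise each passed the limma test at an adjusted p of 0.05.

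Among the 5 other ligands or partners of CXCL12, Mif, the cytokine that also binds CXCR4, was higher in M0 post-sepsis than in M0 naive by 1.72 ± 0.20 and higher in M1 than in M0 naive by 1.52 ± 0.19. It did not pass in M2 (-0.09 ± 0.19) or in TAM post-sepsis against TAM naive (-0.03 ± 0.26). For Mif the TAM sepsis effect minus the M0 sepsis effect was itself -1.75 ± 0.31. Penk, which encodes enkephalin precursors, opioid peptides that ACKR3 also binds, fell by 3.54 ± 0.19 in M0 post-sepsis and by 4.85 ± 0.19 in M1, both against M0 naive. It was higher in M2 by 0.66 ± 0.19, a call that ended with no filter on dim probes (limma adjusted p = 0.0747), in the fit of all 23 arrays (adjusted p = 0.423) and without any 1 of several arrays. Adm, the precursor of adrenomedullin, a peptide that ACKR3 scavenges, was higher in M0 post-sepsis by 1.91 ± 0.29 and in M1 by 2.95 ± 0.29, with 2 of 4 M0 naive arrays above background, so these sizes are uncertain. Cxcl11, the second chemokine of ACKR3, did not pass in M0 post-sepsis (0.30 ± 0.25), M1 (0.12 ± 0.25) or M2 (0.11 ± 0.25). In TAM post-sepsis Cxcl11 was lower by 0.70 ± 0.21 than in TAM naive with slide as a block (log2 change -0.70), and did not pass without it (-0.74 ± 0.30). In M1 against M2, Adm was higher by 2.84 ± 0.29, with 2 of 4 M2 arrays above background, and Mif by 1.61 ± 0.19. Penk was at -5.52 ± 0.19 in that comparison, and Cxcl11 did not pass (0.01 ± 0.25). Against M0 post-sepsis, TAM post-sepsis had higher Adm (2.94 ± 0.39), Penk (1.68 ± 0.47) and Mif (0.53 ± 0.21), and Cxcl11 did not pass (-0.60 ± 0.26). The Mif call there ended with no filter on dim probes (limma adjusted p = 0.0691). Against M0 naive, TAM naive had higher Adm (4.43 ± 0.43) and Mif (2.28 ± 0.22), and Cxcl11 did not pass (0.44 ± 0.28). The Penk TAM sepsis effect minus its M0 sepsis effect was 2.96 ± 0.69.

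Of 11 proteases that trim CXCL12 or belong to families that do, 6 were measured well enough to be tested in the marrow cultures. Mmp14, a membrane-bound metalloproteinase, fell by 2.69 ± 0.17 in M0 post-sepsis against M0 naive and by 1.17 ± 0.17 in M2, and was higher in M1 by 1.61 ± 0.17. With slide as a block Mmp14 was higher by 1.09 ± 0.21 in TAM post-sepsis than in TAM naive, and its TAM sepsis effect minus its M0 sepsis effect was 3.78 ± 0.36. Ctsg, the granule serine protease cathepsin G of neutrophils and their progenitors, was higher in M0 post-sepsis by 2.15 ± 0.19. Mpo, another granule gene made at the progenitor stage, averaged 0.04 in M0 post-sepsis and -1.86 in M0 naive, and the blood progenitor markers were higher as given above, whereas the neutrophil list as a whole was lower; their part was not tested. The Ctsg sepsis effect in TAM lay below that in M0 by 2.95 ± 0.33 (log2 difference -2.95), and with slide as a block Ctsg was at -0.86 ± 0.24 in TAM post-sepsis against TAM naive. Mmp9, or gelatinase B, was at least 2.86-fold lower in M1 than in M0 naive (limma adjusted p = 1.02e-08), being dim on all M1 arrays. That p-value adds no support beyond M0 naive being above background and M1 dim. In M0 post-sepsis Mmp9 was above background on 1 of 4 arrays, at -1.12 ± 0.17 against M0 naive, a call that ended in the fit of all 23 arrays (limma adjusted p = 0.131). Mmp13, or collagenase 3, was higher in M0 post-sepsis by 1.32 ± 0.33, in M1 by 2.21 ± 0.33 and in M2 by 3.39 ± 0.33, each against M0 naive. Ctsk, the collagen-cleaving protease cathepsin K, was higher in M2 by 2.95 ± 0.23. In M1 Ctsg was at -0.63 ± 0.19, a call that ended with quantile scaling (limma adjusted p = 0.0959).

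Between the treated cultures, Mmp14 was higher in M1 than in M2 by 2.77 ± 0.17, Ctsk was at -1.66 ± 0.23, and Mmp9 was at least 2.61-fold lower in M1. Dpp4, also called CD26, the dipeptidase that inactivates CXCL12, was dim in M0 and at least 6.82-fold higher in TAM post-sepsis than in M0 post-sepsis and at least 7.61-fold higher in TAM naive than in M0 naive. It did not pass in TAM post-sepsis against TAM naive (0.22 ± 0.66). Mmp3, or stromelysin 1, was at least 94.7-fold higher in TAM post-sepsis than in M0 post-sepsis and at least 106-fold higher in TAM naive than in M0 naive. Mmp2, or gelatinase A, was at least 54.6-fold higher in TAM post-sepsis than in M0 post-sepsis. In TAM naive it was higher than in M0 naive by 5.29 ± 0.65, with 1 of 4 M0 naive arrays above background. Mmp13 was at -2.01 ± 0.39 in TAM post-sepsis against M0 post-sepsis and at -1.75 ± 0.43 in TAM naive against M0 naive. Ctsg was at -3.52 ± 0.22 in TAM post-sepsis against M0 post-sepsis. Elane, neutrophil elastase, was at -1.79 ± 0.50 in TAM naive against M0 naive, a call that ended without TAM naive replicate 1 (limma adjusted p = 0.0574).

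The 3 surface partners were all higher in M1 than in M0 naive, beside 14.6% of all probes. Cd74, which pairs with CXCR4 in the MIF receptor and is also the invariant chain of MHC class II, was higher by 3.81 ± 0.24 in M1 and by 3.93 ± 0.24 in M2. It did not pass in M0 post-sepsis against M0 naive (0.09 ± 0.24). In TAM post-sepsis against TAM naive Cd74 was at -1.79 ± 0.24 with slide as a block, and at -1.62 ± 0.47 without it, where it did not pass. Cd164, or endolyn, a sialomucin described beside CXCR4, was higher by 1.37 ± 0.23 in M1 and by 0.83 ± 0.23 in M2, where the call ended with no filter on dim probes (limma adjusted p = 0.0573). Set against M2, M1 had higher Sdc4, the heparan sulphate proteoglycan syndecan 4 (0.73 ± 0.20), and Cd74 did not pass (-0.12 ± 0.24). Sdc4 was at -1.59 ± 0.26 in TAM post-sepsis against M0 post-sepsis and at -2.08 ± 0.28 in TAM naive against M0 naive. Cd74 was higher in TAM naive than in M0 naive by 1.62 ± 0.35, a call that ended with TAM naive replicate 2 kept (limma adjusted p = 0.758), and did not pass in TAM post-sepsis against M0 post-sepsis (-0.09 ± 0.33). The Cd74 TAM sepsis effect minus its M0 sepsis effect was -1.71 ± 0.48. That call ended with no filter on dim probes (limma adjusted p = 0.0599). The B cell markers named above differed between the TAM groups as Cd74 did, and their part in the result was not tested.

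Of 17 genes for desensitization and sorting of the receptors, 1 passed higher and 2 lower in M0 post-sepsis, 3 higher and 5 lower in M1, and 1 higher and 6 lower in M2, each against M0 naive. Of all probes 6.38% passed higher and 6.28% lower in M0 post-sepsis, 14.6% and 15.6% in M1, and 5.67% and 7.53% in M2. Grk3, a kinase that phosphorylates activated CXCR4, fell by 0.87 ± 0.22 in M0 post-sepsis, by 1.22 ± 0.22 in M1 and by 1.25 ± 0.22 in M2, each against M0 naive. Its call in M0 post-sepsis ended without M0 naive replicate 2 (limma adjusted p = 0.0606). In TAM post-sepsis against TAM naive Grk3 was at -1.25 ± 0.22 with slide as a block and -1.17 ± 0.35 without, where it did not pass. Arrb2, the beta-arrestin 2 that both receptors recruit, fell by 2.01 ± 0.20 in M2 and did not pass in M1 (-0.53 ± 0.20) or in M0 post-sepsis (-0.35 ± 0.20). With slide as a block Arrb2 passed in M1 (-0.59, limma adjusted p = 0.0284). Rgs1, Rgs2, Rgs14 and Rgs18 encode regulators that shorten G protein signalling. Rgs1 fell by 1.07 ± 0.24 in M0 post-sepsis, and in TAM post-sepsis was at -1.19 ± 0.21 with slide as a block. Rgs14 was higher in M0 post-sepsis by 0.74 ± 0.23, a call that ended with no filter on dim probes (limma adjusted p = 0.0928). Rgs18 was at least 85.3-fold lower in M1 than in M0 naive (limma adjusted p = 6.16e-11), being dim on all M1 arrays, and was at -1.48 ± 0.32 in M2. The p-value for Rgs18 in M1 adds no support beyond M0 naive being bright and M1 dim. Rgs2 was at -4.05 ± 0.23 in M1. Grk5, another receptor kinase, was higher by 1.02 ± 0.24 in M1 and by 1.16 ± 0.24 in M2, and Hgs, an endosomal sorting protein, by 1.17 ± 0.21 in M1. With slide as a block Vps4b, an ATPase of endosomal sorting, was higher in TAM post-sepsis than in TAM naive by 0.64 ± 0.20. Itch, the ubiquitin ligase that sends CXCR4 to degradation, did not pass in M0 post-sepsis (-0.52 ± 0.23), M1 (-0.28 ± 0.23), M2 (0.10 ± 0.23) or TAM post-sepsis (0.13 ± 0.21). With quantile scaling Itch passed in M0 post-sepsis (-0.55, limma adjusted p = 0.0384).

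In M1 against M2, 4 of these 17 passed higher and 2 lower, beside 16.6% and 16.4% of all probes. Rgs1 was higher by 1.98 ± 0.24 and Arrb2 by 1.49 ± 0.20, Rgs2 was at -2.63 ± 0.23, and Rgs18 was at least 30.6-fold lower in M1. Grk3 (0.03 ± 0.22) and Itch (-0.38 ± 0.23) did not pass. In TAM post-sepsis against M0 post-sepsis, 2 passed higher and 10 lower, beside 17.6% and 27.5% of all probes. In TAM naive against M0 naive, 1 passed higher and 9 lower, beside 5871 of 36602 probes and 22.0%. Arrb2 was at -3.71 ± 0.21 in TAM post-sepsis against M0 post-sepsis and at -4.26 ± 0.22 in TAM naive against M0 naive, and Grk3 at -1.35 ± 0.26 for post-sepsis mice and -1.05 ± 0.28 for naive mice. Rgs18 was at -6.13 ± 0.39 in TAM post-sepsis, where 2 of 4 arrays were above background, and at least 77.1-fold lower in TAM naive. Stam, a partner of Hgs, was higher by 1.11 ± 0.20 in TAM post-sepsis than in M0 post-sepsis and by 0.61 ± 0.21 in TAM naive than in M0 naive, and Grk5 was higher by 1.15 ± 0.28 in TAM post-sepsis. The Stam call for naive mice ended with no filter on dim probes (limma adjusted p = 0.053), and with TAM naive replicate 2 kept the sign turned. Itch did not pass for post-sepsis mice (0.06 ± 0.22) or naive mice (-0.59 ± 0.23). The mean of the macrophage markers lay at 0.36 to 1.53 on TAM arrays and 4.85 to 6.63 on marrow arrays, although Itgam alone of them was higher in TAM. The part of these markers in these differences was not tested.

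Of 24 downstream signalling genes, 1 passed higher and 1 lower in M0 post-sepsis against M0 naive, beside 6.38% and 6.28% of all probes. Ptk2, which encodes focal adhesion kinase, was higher by 1.09 ± 0.25, and Gna13, a G protein subunit, fell by 0.89 ± 0.25. The Ptk2 call ended with quantile scaling (limma adjusted p = 0.133) and the Gna13 call with no filter on dim probes (adjusted p = 0.0608). In M1 against M0 naive 8 passed higher and 1 lower, beside 14.6% and 15.6% of all probes. Bcar1, the adhesion docking protein p130Cas, was higher by 4.07 ± 0.35 and Jak2, a cytokine receptor kinase, by 2.29 ± 0.19. Elmo1, a partner of the Rac activator Dock2, was at -0.65 ± 0.21, a call that ended with quantile scaling (limma adjusted p = 0.0658). In M2 3 passed higher and 5 lower, beside 5.67% and 7.53% of all probes. Vav1, a guanine nucleotide exchange factor for Rac, fell by 1.32 ± 0.20 in M2 and Gng2, a G protein subunit, by 1.36 ± 0.22. Jak2 was higher in M2 by 1.59 ± 0.19 and Ptk2 by 1.12 ± 0.25, and the Ptk2 call ended with quantile scaling (limma adjusted p = 0.0589). In M1 against M2 9 passed higher and 1 lower, beside 16.6% and 16.4% of all probes, with Bcar1 at 3.39 ± 0.35, Vav1 at 1.70 ± 0.20 and Dock2 at -1.20 ± 0.31. Rac2, the Rac of blood cells, was at -2.19 ± 0.22 in TAM post-sepsis against TAM naive with slide as a block, and Vav1 at -1.53 ± 0.25.

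In TAM against M0, 14 of the 24 passed lower in each kind of mouse, beside 27.5% of all probes for post-sepsis mice and 22.0% for naive mice, with Vav1 at -5.14 ± 0.33 for post-sepsis mice and -4.26 ± 0.36 for naive mice. Bcar1 was higher in TAM by 5.98 ± 0.32 for post-sepsis mice and by 5.84 ± 0.35 for naive mice, and Ptk2 by 3.46 ± 0.24 for post-sepsis mice and 3.95 ± 0.26 for naive mice. Of the 24, 4 passed higher for post-sepsis mice, beside 17.6% of all probes, and 3 for naive mice, beside 5871 of 36602 probes. Pik3cg, the catalytic subunit of phosphoinositide 3-kinase gamma, was at -5.43 ± 0.34 in TAM post-sepsis against M0 post-sepsis, with 2 of 4 TAM arrays above background. Pik3r5, a regulatory subunit of the same kinase, was at -4.63 ± 0.33 in TAM naive against M0 naive. The Pik3cg TAM sepsis effect minus its M0 sepsis effect was -1.75 ± 0.50, a call that ended with quantile scaling (limma adjusted p = 0.177). The mean of the macrophage markers, at 0.36 to 1.53 on TAM arrays and 4.85 to 6.63 on marrow arrays, differed in the same direction as the lower genes. Itgam alone of these markers went the other way. It was at 5.55 in TAM post-sepsis against 5.34 in M0 post-sepsis, and at 7.72 in TAM naive against 6.09 in M0 naive. The part of these markers in the result was not tested.

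Of 8 transcription factors described for these genes, 0 passed in M0 post-sepsis and 0 in M2, and 3 passed higher and 1 lower in M1, each against M0 naive. The shares of all probes were 6.38% higher and 6.28% lower in M0 post-sepsis, 5.67% and 7.53% in M2, and 14.6% and 15.6% in M1. With 8 genes, 0 calls is not read as a result about the factors. Hif1a, the hypoxia-inducible factor known to raise Cxcr4, was higher in M1 by 2.06 ± 0.32 and did not pass in M0 post-sepsis (-0.35 ± 0.32) or M2 (0.67 ± 0.32). With slide as a block Hif1a was higher by 0.92 ± 0.19 in TAM post-sepsis than in TAM naive. Without the block Hif1a did not pass (0.93 ± 0.31). The part of Hif1a in the Cxcr4 levels was not tested. Klf2, a factor of resting leukocytes and endothelium, fell by 1.37 ± 0.19 in M1, and Rela, a subunit of NF-kB, was higher by 1.31 ± 0.21. Set against M2, M1 had Rela higher by 1.91 ± 0.21 and Hif1a by 1.39 ± 0.32, and Klf2 was at -1.65 ± 0.19. Hif1a was higher by 1.56 ± 0.32 in TAM post-sepsis than in M0 post-sepsis and did not pass in TAM naive against M0 naive (0.28 ± 0.34). Foxo1, a forkhead factor of the insulin and PI3K pathway, was higher by 0.87 ± 0.25 in TAM post-sepsis than in M0 post-sepsis and by 0.82 ± 0.27 in TAM naive than in M0 naive, and Klf2 by 1.64 ± 0.33 in TAM naive. Rela was at -0.53 ± 0.21 in TAM post-sepsis against M0 post-sepsis, a call that ended with no filter on dim probes (limma adjusted p = 0.0702), and at -1.24 ± 0.23 in TAM naive against M0 naive. The Foxo1 call for naive mice ended without TAM naive replicate 3 (limma adjusted p = 0.188), and with TAM naive replicate 2 kept the sign turned.

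**Figure D4:**
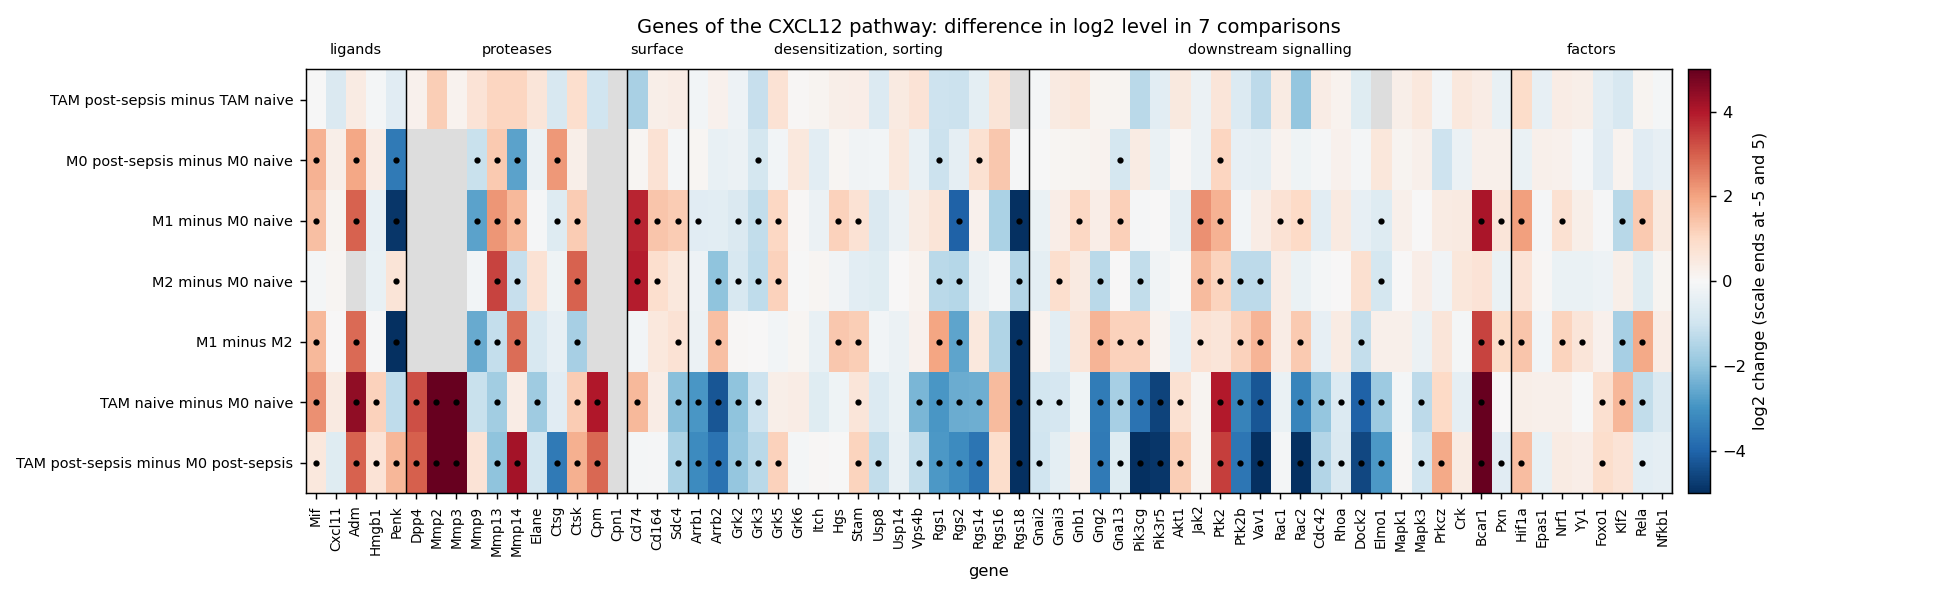
Log2 change of each of the 68 pathway genes (columns, grouped by list) in 7 comparisons (rows, first group minus second); red is higher and blue lower in the group named first, the colour scale ends at -5 and 5, black dots mark genes that passed the limma test, and grey cells were not tested. The row of TAM post-sepsis against TAM naive has no dots, and dots are most frequent in M1 against M0 naive, M1 against M2 and TAM against M0.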

How the data were processed

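Gene expression was measured on 24 Agilent 1-colour arrays. Per the file headers, the deposited values are spot intensity readings, background-subtracted and detrended within each array, with probes placed on mm9. The extraction software was Feature Extraction 10.7.3.1 per the file headers and 12.5 per the submitters' processing notes.

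Processed intensity was log2-transformed and centred on each array's 75th percentile over non-control spots, and spots of 1 probe were averaged. The deposited value table was not used, because its columns match the scanner files of other samples. Gene names came from RefSeq (GRCm38.p6) by accession for 27656 probes, by symbol for 3401 and by synonym for 321. The file's name was kept for 1481 and 22822 had none. Promoters came from the same RefSeq table, and all 3 genes were found in it. After 77 probes with outlier flags were dropped, 55604 remained.

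Differences were tested two-sided with limma 3.58.1 in R 4.3.3, with Benjamini-Hochberg adjustment over the probes kept, at 0.05. A probe was kept when at least 3 arrays of 1 compared group read it well above background. A p-value printed beside a bound is that of the measured difference, dim values included. Probes given as bounds passed the filter through the brighter group alone. Their p-values and calls therefore add no support beyond that group being bright and the other dim. TAM post-sepsis against TAM naive used its own 7 arrays, comparisons within marrow the 16 marrow arrays, and the others all 23. Slide as a block, the replicate number as a block, quantile scaling, normexp background correction with an offset of 50, other filters on dim probes, other array sets and leaving out each replicate were tried. In simulated data for TAM, 1 of 100 changes of 1 log2 unit and 45 of 100 of 2 units were recovered, and for M0 21 and 74.

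All probes of the 3 genes are given. From each pathway list the text takes, by rule, up to 2 genes each way with the largest change among those that passed, and Cxcl11, Mif, Dpp4, Cd74, Itch, Arrb2, Grk3 and Hif1a in any case, each by 1 probe, that of the highest mean over the 23 arrays, dim arrays included. The members and lists were chosen with earlier results of these data known. Replicate numbers were not shown to pair the samples: between TAM groups, same-numbered arrays deviated with correlations of -0.50, 0.15 and 0.22. Between M1 and M0 naive they were 0.56, 0.09, 0.67 and 0.04, and in none of the 7 comparisons between groups was every pair over 0.1.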

Additional observations from a re-analysis of the deposited data

Results flagged for a closer look

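Cxcr4 on TAM post-sepsis replicate 3, at -1.79, lay far below the other 3 arrays of its group, at -0.48 to -0.34. Of 8 combinations of group and probe examined in this way it was the only one so marked, and chance marks about 1 group in 20. The same array was also the lowest of the 7 TAM arrays in B cell markers (-3.80) and in T and NK cell markers (-4.04), and the highest in Ackr3 (3.36) and in both Cxcl12 probes (2.85 and 1.95).

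On TAM naive replicate 2, the array the submitters had excluded, the Cxcl12 variant 1 probe was well above background at a level of 1.41, with a processed intensity of 130. On that array Cxcr4 (-1.97), Ackr3 (-3.52) and the other Cxcl12 probe (-1.89) were not well above background, and 42.4% of all probes were.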

How the results depend on the processing

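Of the tests of the 4 probes under the alternatives, 251 kept their direction and their side of the threshold, 8 lost the call, 6 gained one and 8 changed sign. Cxcr4 in TAM post-sepsis against TAM naive passed with slide as a block (-1.90), with all 23 arrays in 1 fit (-1.74, adjusted p = 0.0145) and without TAM post-sepsis replicate 2 (limma adjusted p = 0.0268), and leaving out each array gave -2.07 to -1.26. With the replicate number as a block, which drops TAM post-sepsis replicate 2 for want of a partner, Cxcr4 was at -1.84, Ackr3 at 1.50 and the Cxcl12 variant 1 probe at 1.18, all past the threshold in limma, although the numbers were not shown to pair the samples. That block changed no other call of the 4 probes. With TAM naive replicate 2 kept, Cxcr4 was at -1.003 (limma adjusted p = 0.322) and Ackr3 at 1.76 in this comparison. With that array Cxcr4 was at -1.77 in TAM naive against M0 naive, and its TAM sepsis effect minus its M0 sepsis effect was 0.93. Leaving out each array moved Ackr3 between -0.0032 and 1.50, the variant 1 probe between -0.11 and 1.18 and the other Cxcl12 probe between -0.40 and 0.41. Ackr3 was at its lowest without TAM naive replicate 1 and the variant 1 probe without TAM post-sepsis replicate 3, and both were at their highest without TAM post-sepsis replicate 2. The other Cxcl12 probe was negative without TAM post-sepsis replicate 3 or TAM naive replicate 4, and was at -0.055 with normexp and -0.068 with quantile scaling.

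Cxcr4 in M2 against M0 naive lost its call in the fit of 23 arrays (-0.77). Fitted on the compared groups alone, which have fewer arrays to estimate the spread, it lost the call in TAM post-sepsis against M0 post-sepsis (-0.85) and in TAM naive against M0 naive (-1.04). Leaving out each array gave -0.99 to -0.51 and -1.51 to -0.71 in these, and -0.14 to 0.67 for the difference between the sepsis effects. The cause of the other changes was not tested.

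Probes called in TAM post-sepsis against TAM naive numbered 0, against 11504 with slide as a block, 11617 with the replicate block, 4915 in the fit of 23 arrays and 11117 without TAM post-sepsis replicate 2. M0 post-sepsis against M0 naive gave 4478, and 2145 on those groups alone. TAM post-sepsis against M0 post-sepsis gave 16237, and 9595 on those groups alone. The difference between sepsis effects gave 2435, against 4514 with normexp, 3923 with quantile scaling, 690 on the 4 groups alone, 1103 with TAM naive replicate 2 kept, and 1159 to 7128 when leaving out each array.

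Of the tests of pathway genes, 2251 were the same, 112 lost and 48 gained the call, and 44 changed sign. In TAM post-sepsis against TAM naive, Mif was at 0.038 with quantile scaling and 0.23 with TAM naive replicate 2 kept, Rgs1 at 0.067 with that array kept, and Itch at -0.060 with normexp and -0.044 with quantile scaling. Cd74 was at 0.22 with normexp and 0.28 with quantile scaling in M1 against M2, and at 0.019 with normexp in TAM post-sepsis against M0 post-sepsis. With TAM naive replicate 2 kept, TAM naive against M0 naive gave -0.26 for Stam, -0.15 for Foxo1 and -0.99 for Hif1a. For the difference between sepsis effects Dpp4 was at 0.30 with normexp, 0.23 with quantile scaling and 0.10 with that array kept, and Grk3 at 0.29 with normexp and 0.23 with quantile scaling. Leaving out each array moved Mif between -0.17 and 0.11 and Dpp4 between -0.18 and 0.70 in TAM post-sepsis against TAM naive, and Cd74 between -0.12 and 0.27 in M0 post-sepsis against M0 naive. It moved Cxcl11 between -0.049 and 0.28 in M1 and between -0.059 and 0.28 in M2, Mif between -0.22 and 0.089 and Itch between -0.041 and 0.19 in M2, all against M0 naive. In M1 against M2 it moved Cxcl11 between -0.16 and 0.12 and Grk3 between -0.049 and 0.15. In TAM post-sepsis against M0 post-sepsis it moved Cd74 between -0.27 and 0.12 and Itch between -0.14 and 0.26, and the difference between sepsis effects for Dpp4 between -0.61 and 0.27.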

Other observations

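The genes most like each member differed with the arrays used, in choices made after seeing the data and with no test. Over the 7 TAM arrays alone the 5 genes nearest to Cxcr4 were Dok3, Gpcpd1, H2bu2, A430104N18Rik and Olfr1312, those nearest to Ackr3 were Galnt16, Ly6g, Ccl2, Ly6a2 and Has1, and those nearest to Cxcl12 were Rasl12, Cfap45, Prr15, As3mt and Adamts9. Over the 16 marrow arrays alone those nearest to Cxcr4 were Glipr1, Ms4a7, Stkld1, Mbd5 and Cd72, and 0 were shared with the 5 over all 23 arrays. The lowest r among the 5 genes nearest to Cxcl12 on the 7 TAM arrays was 0.968, taken from 18316 genes.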
